A study of Mus musculus with 8 samples.

Results

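The 10 genes described here encode enzymes of triglyceride synthesis, on the glycerol 3-phosphate route (Gpd1, Gpam, Agpat9, Agpat2, Agpat3, Lpin1, Dgat1, Dgat2) and on the monoacylglycerol route (Mogat1, Mogat2). They were taken by symbol from 18691 genes, and all 10 had counts in every library and passed the filter on low counts. The series measured polyadenylated RNA of epididymal white adipose tissue from C57BL/6J mice aged 16 weeks, in 4 libraries labelled Mrp4-/- (replicates 1, 2, 4 and 5) and 4 WT libraries (replicates 1 to 4). No other allele or agent is named for either group, and the labels give neither how the allele was made nor whether the libraries are from different mice. P-values therefore measure the spread between these libraries, which may be technical.

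Adipocytes store fatty acids as triglyceride in lipid droplets. On the glycerol 3-phosphate route, acyltransferases add a first and a second fatty acid to glycerol 3-phosphate, a phosphatase turns the resulting phosphatidate into diacylglycerol, and a diacylglycerol acyltransferase adds the last fatty acid. The monoacylglycerol route, best known from intestine, reaches diacylglycerol by adding a fatty acid to monoacylglycerol.

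Abcc4, the gene of Mrp4, had no lower RNA level under the Mrp4-/- label. In FPKM, read fragments scaled to transcript length and library size, its levels were 3.54, 3.68, 3.89 and 3.31 in libraries labelled Mrp4-/-, against 3.59, 3.33, 3.81 and 3.33 in WT libraries, and the groups overlapped (exact two-sided permutation p = 0.571, smallest possible p = 0.0286). The RNA level did not bear out the label, on which the directions given for the enzymes depend. Libraries held 14064681 to 14700114 expected counts in all. The 10 adipocyte markers were all abundant, with a summed level of 22072 to 28845 FPKM in libraries labelled Mrp4-/- and 19632 to 25332 FPKM in WT libraries. The 12 hepatocyte markers, from Alb down to Cps1, were all detected and all rose, with a summed level of 736 to 1380.2 FPKM in libraries labelled Mrp4-/- and 40.5 to 100.2 FPKM in WT libraries. In lists of 10 markers, 6 endothelial and 4 macrophage markers rose. For these and the counts that follow, 10.2% of all tested genes rose and 8.05% fell. All 10 endothelial markers summed to 562 to 602 FPKM in libraries labelled Mrp4-/- and 334 to 531 FPKM in WT libraries. All 10 macrophage markers summed to 802 to 1299 FPKM in libraries labelled Mrp4-/- and 682 to 790.1 FPKM in WT libraries. Most of the macrophage sum was Lyz2, which did not pass (edgeR adjusted p = 0.0568). Of the 10 progenitor and fibroblast markers 4 rose and 1 fell, and of the 6 brown adipocyte markers tested 1 rose and 1 fell. Of the 9 mesothelial markers tested 1 fell. The mesothelial list summed to 64.2 to 172 FPKM in libraries labelled Mrp4-/- and 169 to 269 FPKM in WT libraries. Of the 10 epididymal epithelium markers 5 were at 0 in all libraries, and the list summed to 0.22 to 0.4 FPKM in libraries labelled Mrp4-/- and 0.36 to 13.75 FPKM in WT libraries. WT replicate 2 stood apart, with Crisp1 at 13.5 FPKM. Without that library 6 enzymes fell, the number with all libraries, while 1706 of all tested genes fell, against 1148 with all libraries. In bulk tissue, fewer cells of a type and less RNA per cell cannot be told apart, and the part that other cell types had in the results below was not tested.

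Of the 10 enzymes, 6 fell in the libraries labelled Mrp4-/-, 0 rose and 4 did not pass the test (edgeR's quasi-likelihood test, Benjamini-Hochberg adjusted p under 0.05 over 14257 genes). Over all tested genes 8.05% fell and 10.2% rose. With libraries scaled by size alone, 680 genes fell, 1950 rose and 5 enzymes fell, against 1148, 1458 and 6 with the scaling used here. At an unadjusted p under 0.05 the counts among the enzymes were 7 lower and 0 higher, beside 5030 of 14257 tested genes in either direction. DESeq2 called 7 enzymes lower and 0 higher, beside 1529 genes lower and 1785 higher over all tested genes. The median log2 fold change was -0.54 over the 10 enzymes, -0.00 over all tested genes and -0.05 over the adipocyte markers, of which 1 of 10 fell (Plin1). Over the 9 mesothelial markers tested it was -0.73, with all 9 negative. The other marker lists with tested genes had medians of 0.08 to 3.87. The FPKM ranges did not overlap for Agpat2, Agpat3, Agpat9, Lpin1 and Mogat1, all lower, where 7.08% of all tested genes had non-overlapping ranges in that direction. The number of enzymes that fell was 4, 3, 3 and 5 without replicate 1, 2, 4 and 5 labelled Mrp4-/-, and 4, 6, 5 and 3 without WT replicate 1, 2, 3 and 4. In the same order, 541, 643, 525 and 553, and 576, 1706, 602 and 452 of all tested genes fell, against 1148 with all libraries.

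**Figure D1:**
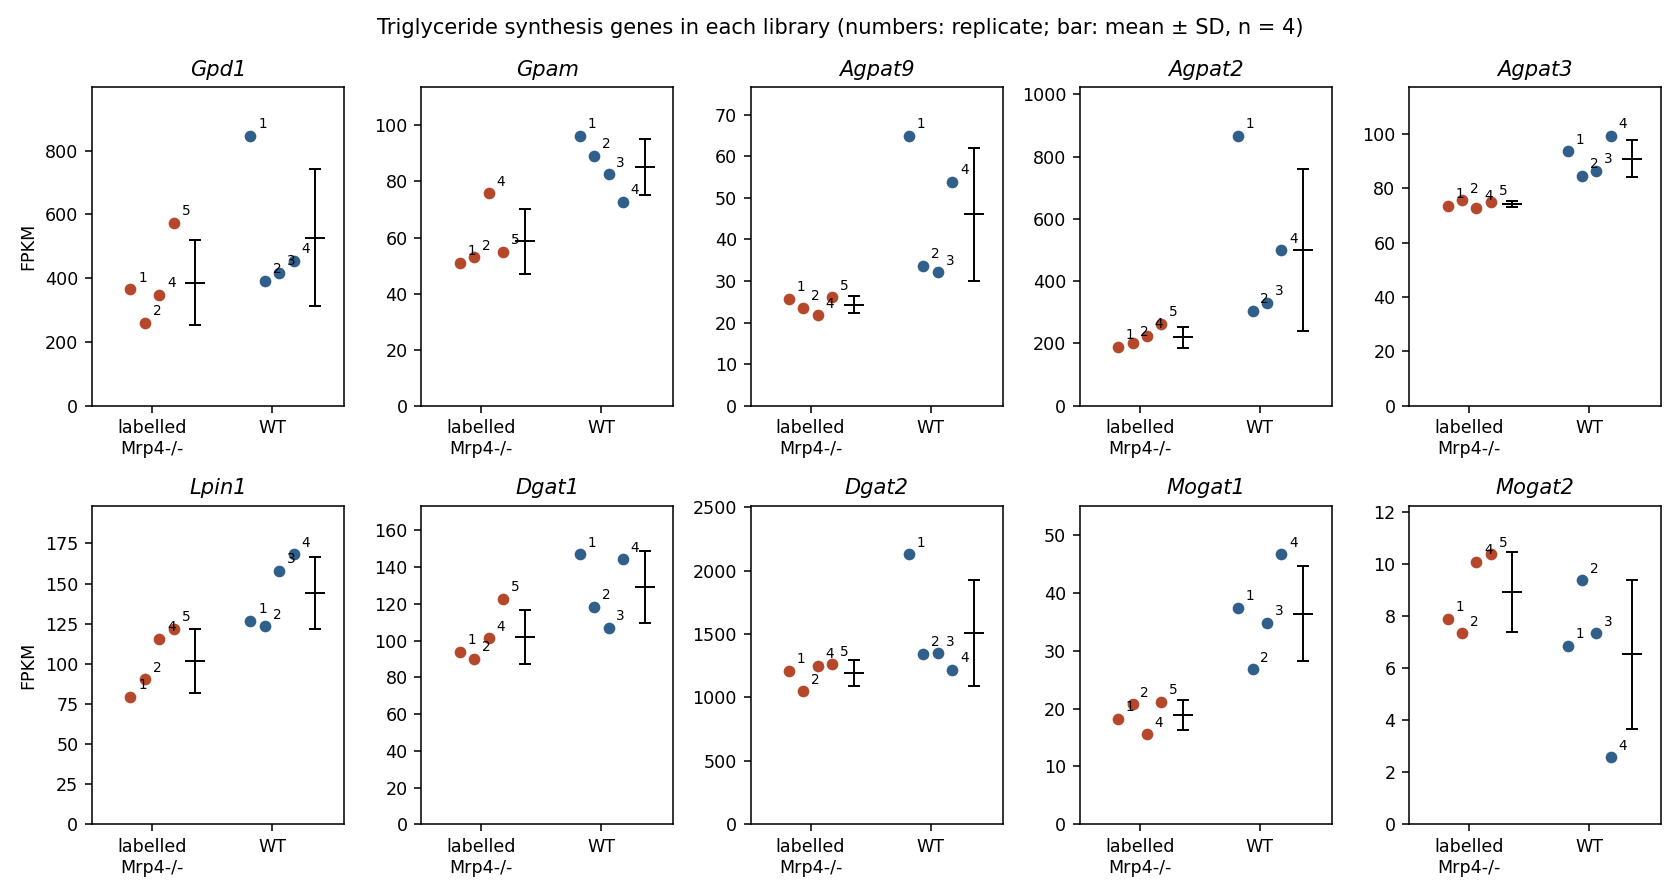
FPKM (y axis, from 0, a separate scale for each gene) of the 10 enzymes in the 4 libraries labelled Mrp4-/- and the 4 WT libraries, each point a library with its replicate number and each bar a mean ± SD. The groups do not overlap for Agpat9, Agpat2, Agpat3, Lpin1 and Mogat1, and WT replicate 1 stands above the other WT libraries for Gpd1, Agpat2 and Dgat2.

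Glycerol 3-phosphate comes in part from Gpd1, the cytosolic glycerol 3-phosphate dehydrogenase, which did not pass the test. Its levels were 364, 259, 347 and 574 FPKM in libraries labelled Mrp4-/-, against 847, 392, 416 and 455 FPKM in WT libraries. WT replicate 1 lay far above all other libraries, and replicate 5 labelled Mrp4-/- above the other 3 WT libraries, so the groups overlapped. Gpd1 had a log2 fold change of -0.51 ± 0.31 (SE; fold 0.7, 95% interval 0.435 to 1.13; edgeR adjusted p = 0.258), or -0.19 without WT replicate 1. Gpd2, the mitochondrial dehydrogenase that oxidises glycerol 3-phosphate, fell to 9.98 ± 0.884 FPKM in libraries labelled Mrp4-/-, against 25.3 ± 11.96 FPKM in WT libraries (SD, n = 4), a log2 fold change of -1.41 ± 0.28 (SE; edgeR adjusted p = 0.0127). WT replicate 1 was highest at 42.4 FPKM, and without it the Gpd2 value was -1.04 and still passed. Gyk, glycerol kinase, which makes glycerol 3-phosphate from free glycerol, rose to 2.88 ± 0.416 FPKM in libraries labelled Mrp4-/-, against 1.86 ± 0.266 FPKM in WT libraries (SD, n = 4; log2 fold change 0.56 ± 0.15, edgeR adjusted p = 0.0315). The Gyk call was lost without replicate 2, 4 or 5 labelled Mrp4-/- (0.50, 0.58 and 0.51) and without WT replicate 3 or 4 (0.46 and 0.59). Gyk is also a liver transcript, and the hepatocyte markers rose in the same libraries. Whether liver RNA had a part in this or any other value was not tested.

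Among the enzymes of the first acylation, Gpam, the mitochondrial glycerol 3-phosphate acyltransferase, and Agpat9, an enzyme of the endoplasmic reticulum whose current symbol is Gpat3, fell. Agpat6 (Gpat4), another enzyme of this step and not one of the 10, did not pass: it averaged 38.9 ± 4.35 FPKM in libraries labelled Mrp4-/- and 44.2 ± 7.47 FPKM in WT libraries (SD, n = 4), with overlapping groups and a log2 fold change of -0.25 (edgeR adjusted p = 0.202). Gpam stood at 50.9, 52.9, 75.7 and 55.0 FPKM in libraries labelled Mrp4-/-, against 96.3, 89.2, 82.5 and 72.7 FPKM in WT libraries. Replicate 4 labelled Mrp4-/- was above WT replicate 4, and the other 3 libraries labelled Mrp4-/- were below every WT library. The log2 fold change of Gpam was -0.60 ± 0.14 (SE; edgeR adjusted p = 0.0202), and the call was lost without replicate 2 or 5 labelled Mrp4-/- (-0.55 and -0.58) or WT replicate 1 (-0.54).

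Agpat9 stood at 25.7, 23.6, 21.7 and 26.1 FPKM in libraries labelled Mrp4-/-, against 64.9, 33.6, 32.1 and 53.8 FPKM in WT libraries. The groups did not overlap; the WT libraries split into a higher pair (replicates 1 and 4) and a lower pair, while the libraries labelled Mrp4-/- lay close together. Its log2 fold change was -0.99 ± 0.22 (SE; edgeR adjusted p = 0.019), at -0.78 without WT replicate 1, and the call was lost without replicate 4 labelled Mrp4-/- (-0.94) or WT replicate 4 (-0.90). Gpam made up 70.3% ± 5.06 of the summed FPKM of this pair in libraries labelled Mrp4-/- and 65.5% ± 7.99 in WT libraries (SD, n = 4). The log2 ratio of Gpam to Agpat9 differed by 0.31 between the groups (exact two-sided permutation p = 0.314, adjusted p = 0.629 over the 2 ratios tested), with values of 0.13 to 0.47 when 1 library was left out.

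The second acylation was represented by Agpat2, the main enzyme of this step in adipose tissue, whose loss causes lipodystrophy, and by Agpat3, which also acylates other lysophospholipids; both fell. Agpat2 stood at 189.6, 199.9, 225 and 262 FPKM in libraries labelled Mrp4-/-, against 867, 305, 331 and 499 FPKM in WT libraries. Every WT library lay above every library labelled Mrp4-/-, and the WT values had a coefficient of variation of 51.8%, against 14.7% in the libraries labelled Mrp4-/-. Agpat2 had a log2 fold change of -1.26 ± 0.31 (SE; edgeR adjusted p = 0.0275), the largest fall among the 10 enzymes. It was -0.85 without WT replicate 1 and still passed, and the call was lost without replicate 1, 2, 4 or 5 labelled Mrp4-/- (-1.19, -1.21, -1.27 and -1.36) or WT replicate 4 (-1.25).

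Agpat3 stood at 73.6, 75.6, 72.8 and 74.8 FPKM in libraries labelled Mrp4-/-, against 93.5, 84.5, 86.4 and 99.3 FPKM in WT libraries. The libraries labelled Mrp4-/- differed by a coefficient of variation of 1.63%, the smallest of the 10 enzymes, and all lay below the lowest WT library. The fall was small, with a log2 fold change of -0.36 ± 0.08 (SE; edgeR adjusted p = 0.0158), and it passed with each library left out (-0.41 to -0.31). With libraries scaled to the adipocyte markers, Agpat2 and Agpat3 kept values of -1.26 and -0.33 but did not pass (edgeR adjusted p = 0.0605 and 0.0667). Agpat2 made up 72.0% to 77.8% of the summed FPKM of this pair in libraries labelled Mrp4-/- and 78.3% to 90.3% in WT libraries, ranges that did not overlap and were not tested.

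Lpin1, lipin 1, the phosphatidate phosphatase that makes diacylglycerol and the main lipin of adipose tissue, fell. Its levels were 79.4, 90.3, 115 and 122 FPKM in libraries labelled Mrp4-/-, against 127, 123, 158 and 168 FPKM in WT libraries. The groups did not overlap, but the highest library labelled Mrp4-/- and the lowest WT library differed by less than the spread within either group. The log2 fold change was -0.57 ± 0.17 (SE; edgeR adjusted p = 0.0436), the highest p of the 6 calls, and it was lost without replicate 1, 2 or 4 labelled Mrp4-/- (-0.46, -0.51 and -0.63) or WT replicate 1, 3 or 4 (-0.62, -0.52 and -0.47). It was also lost with libraries scaled by size alone (-0.50, edgeR adjusted p = 0.055) and with limma on log2(FPKM + 1) (-0.51, adjusted p = 0.0506). The other lipins were low and did not pass. Lpin2 averaged 4.78 ± 0.602 FPKM in libraries labelled Mrp4-/- and 3.75 ± 0.294 FPKM in WT libraries (SD, n = 4; log2 fold change 0.28, edgeR adjusted p = 0.0848; 0.37 and passing without replicate 1 labelled Mrp4-/-, and 0.35 and passing with libraries scaled by size alone). Ntsr2, which overlaps Lpin1 in the RefSeq annotation, had 3.51 to 6.25 FPKM in libraries labelled Mrp4-/- and 2.01 to 3.44 FPKM in WT libraries.

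The last acylation is shared by Dgat1 and Dgat2, unrelated proteins with the same activity, and neither passed the test. Dgat2 was the most abundant of the 10 enzymes in all 8 libraries, at 1211, 1048, 1249.7 and 1263 FPKM in libraries labelled Mrp4-/-, against 2127, 1340.3, 1348 and 1216 FPKM in WT libraries. WT replicate 1 stood far above all others, and WT replicate 4 lay inside the range of the libraries labelled Mrp4-/-. Dgat2 had a log2 fold change of -0.40 ± 0.18 (SE; 95% interval on the log2 scale -0.81 to 0.0013; edgeR adjusted p = 0.143), which was -0.19 without WT replicate 1. Dgat1 stood at 93.8, 89.8, 101 and 123 FPKM in libraries labelled Mrp4-/-, against 147, 118, 107 and 144 FPKM in WT libraries. Replicate 5 labelled Mrp4-/- lay above WT replicates 2 and 3, and the other 3 lay below every WT library. Its log2 fold change was -0.40 ± 0.14 (SE; edgeR adjusted p = 0.0708); without replicate 5 labelled Mrp4-/- it was -0.51 and passed, and DESeq2 called it as well (adjusted p = 0.0355). Dgat2 had 10.3 to 12.9 times the FPKM of Dgat1 in libraries labelled Mrp4-/- and 8.43 to 14.5 times in WT libraries. The log2 ratio of Dgat2 to Dgat1 differed by 0.03 between the groups (exact two-sided permutation p = 0.857, adjusted p = 0.857 over the 2 ratios tested), with values of -0.12 to 0.14 when 1 library was left out.

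On the monoacylglycerol route, Mogat1 fell while Mogat2 did not pass the test. Mogat1, a monoacylglycerol acyltransferase, had the lowest p of the 10 enzymes. It stood at 18.2, 20.7, 15.5 and 21.2 FPKM in libraries labelled Mrp4-/-, against 37.5, 26.8, 34.8 and 46.7 FPKM in WT libraries. No library labelled Mrp4-/- reached the lowest WT library. Its log2 fold change was -1.01 ± 0.17 (SE; fold 0.496, 95% interval 0.379 to 0.65; edgeR adjusted p = 0.00702). Mogat1 passed with each library left out (-1.14 to -0.86) and with libraries scaled to the adipocyte markers (-0.98). Its call, like those of all the enzymes, was lost with a block for the replicate number (-1.08, edgeR adjusted p = 0.0911).

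Mogat2, the monoacylglycerol acyltransferase best known from the small intestine, was the least abundant of the 10 enzymes and the only one with a positive log2 fold change. Its levels were 7.89, 7.34, 10.1 and 10.4 FPKM in libraries labelled Mrp4-/-, against 6.85, 9.37, 7.34 and 2.57 FPKM in WT libraries. The groups overlapped, and WT replicate 4 alone lay well below the others, with an expected count of 64. Mogat2 had a log2 fold change of 0.39 ± 0.31 (SE; fold 1.31, 95% interval 0.814 to 2.11; edgeR adjusted p = 0.391), or 0.13 without WT replicate 4. The enterocyte markers Cdx2 and Si were at 0 in all libraries, and 1 of the 3 enterocyte markers tested rose (Vil1). The 10 together summed to 13.0 to 16.0 FPKM in libraries labelled Mrp4-/- and 10.3 to 15.7 FPKM in WT libraries. Nearly all of that sum was Lgals4, and 8 of the 10 were under 1 FPKM in all libraries. The low Fabp2 and Vil1 were higher in every library labelled Mrp4-/- than in any WT library (lowest 0.31 and 0.25 FPKM, against WT highest 0.15 and 0.2 FPKM). They were 2 of the 8 enterocyte markers listed, where 16.4% of all tested genes had non-overlapping ranges in that direction. Fabp2 was not among the 3 tested. Mogat1 made up 60.7% to 73.9% of the summed FPKM of this pair in libraries labelled Mrp4-/- and 74.1% to 94.8% in WT libraries, ranges that did not overlap and were not tested. In the RefSeq gene order Mogat2 is the next coding gene to Dgat2 on chromosome 7, and Acsl3, which activates fatty acids, is the next coding gene to Mogat1 on chromosome 1.

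**Figure D2:**
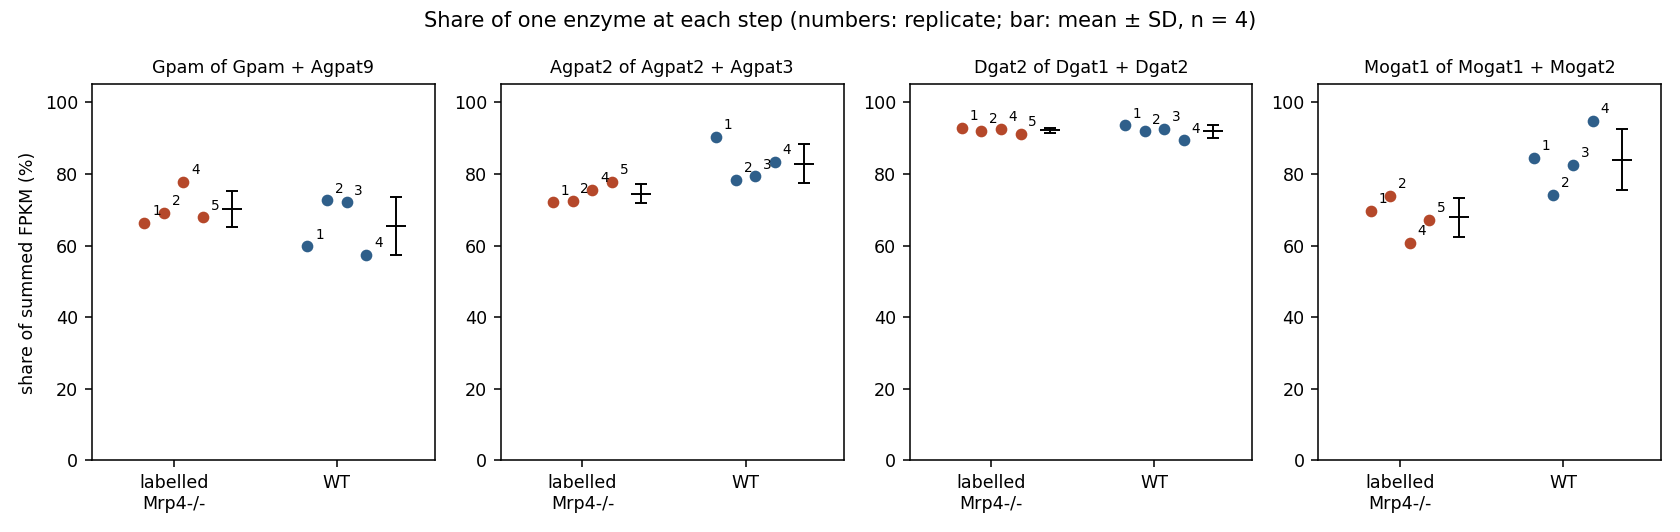
Share (y axis, percent) of Gpam, Agpat2, Dgat2 and Mogat1 in the FPKM summed with the other of the 10 enzymes at the same step. Enzymes outside the 10, such as Agpat6 and Agpat1, are not in the sums. Points are libraries labelled Mrp4-/- or WT, with their replicate number, and bars are mean ± SD. The share of Dgat2 stays between 89.4% and 93.5% in all libraries. The shares of Agpat2 and Mogat1 are lower in all libraries labelled Mrp4-/- than in any WT library, by narrow gaps. Their highest shares under that label are 77.8% and 73.9%, against lowest WT shares of 78.3% and 74.1%.

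The set of RefSeq promoter sequences used here (GRCm38.p6) held 6 of the 10 enzymes, the 6 that fell. RefSeq also places Dgat1, Dgat2, Mogat2 and Gpd1 in its gene order, so their absence is a limit of that set. Shown are the 250 bases before the transcription start of the 3 genes with the largest falls and of both listed starts of Gpam, the enzyme of the first acylation. Capitals mark matches, on either strand, to a CCAAT box (CCAAT), a GC box (GGGCGG, recognised by Sp1) or the core of a nuclear receptor site (AGGTCA), where matches may overlap; each is written 5′ to 3′ along the gene's strand.
Mogat1 chr1:78510810-78511059 (+ strand): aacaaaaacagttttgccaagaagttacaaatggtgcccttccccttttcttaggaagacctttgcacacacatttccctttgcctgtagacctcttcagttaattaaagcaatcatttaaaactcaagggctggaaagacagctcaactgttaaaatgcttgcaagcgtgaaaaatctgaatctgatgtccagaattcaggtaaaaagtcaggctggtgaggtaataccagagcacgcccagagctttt
Agpat9 chr5:100845979-100846228 (+ strand): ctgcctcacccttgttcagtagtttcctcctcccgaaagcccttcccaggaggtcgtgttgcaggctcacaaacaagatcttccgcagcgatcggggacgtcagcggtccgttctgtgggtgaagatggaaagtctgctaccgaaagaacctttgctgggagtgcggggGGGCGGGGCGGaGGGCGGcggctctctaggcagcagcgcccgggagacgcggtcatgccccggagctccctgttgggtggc
Agpat2 chr2:26604418-26604667 (- strand): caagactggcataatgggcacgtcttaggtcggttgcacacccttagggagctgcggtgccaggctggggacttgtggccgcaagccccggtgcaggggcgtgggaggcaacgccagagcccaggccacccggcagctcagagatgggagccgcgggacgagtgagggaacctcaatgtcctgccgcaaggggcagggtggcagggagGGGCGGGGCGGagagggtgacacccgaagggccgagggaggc
Gpam first start chr19:55127239-55127488 (- strand): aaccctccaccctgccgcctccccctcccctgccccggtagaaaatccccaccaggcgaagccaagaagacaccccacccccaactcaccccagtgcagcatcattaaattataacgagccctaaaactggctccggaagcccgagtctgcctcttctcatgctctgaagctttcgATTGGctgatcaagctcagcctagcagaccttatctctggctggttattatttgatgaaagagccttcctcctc
Gpam second start chr19:55099478-55099727 (- strand): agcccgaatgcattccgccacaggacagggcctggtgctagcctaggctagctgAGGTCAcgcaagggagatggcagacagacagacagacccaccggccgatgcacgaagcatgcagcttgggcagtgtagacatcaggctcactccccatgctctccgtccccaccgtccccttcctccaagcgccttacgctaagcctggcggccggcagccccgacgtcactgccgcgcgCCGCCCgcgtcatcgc
Agpat9 held 3 GC box matches and Agpat2 held 2, where 32.7% of 32851 promoter windows of the same length held at least 1. The first start of Gpam held a CCAAT box match on the opposite strand, as 33.9% of windows did on either strand, and the second held a GC box and a nuclear receptor core match, the last found in 14.0% of windows. Mogat1 held none of these, and its window had 41.2% G and C, against 69.2% for Agpat2 and a median of 52.4% over all windows. No window of the 6 genes matched the sterol regulatory element TCACNCCAC, found in 1.05% of all windows, the E-box CACGTG, found in 6.02%, or the TATA box TATAAA, found in 12.4%. A match is a run of letters and not a shown binding site.

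The order of the 10 enzymes by mean FPKM was alike at its ends in both groups. In libraries labelled Mrp4-/- it ran Dgat2 (1193), Gpd1 (386), Agpat2 (219), Dgat1 (102), Lpin1 (102), Agpat3 (74.2), Gpam (58.6), Agpat9 (24.3), Mogat1 (18.9) and Mogat2 (8.92). Neighbours in this order kept it in all 4 libraries except Dgat1 over Lpin1, in 2 of 4, and Agpat3 over Gpam, in 3 of 4. In WT libraries Dgat2 averaged 1508, Gpd1 527, Agpat2 500.4, Lpin1 144, Dgat1 129, Agpat3 90.9, Gpam 85.2, Agpat9 46.1, Mogat1 36.4 and Mogat2 6.53 FPKM. Gpd1 over Agpat2 and Agpat3 over Gpam held in 2 of 4 WT libraries, and Lpin1 over Dgat1 and Agpat9 over Mogat1 in 3 of 4. Gpd1 and Agpat2, at like levels in WT libraries, differed by 1.76 times in libraries labelled Mrp4-/-.

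No library held the same rank in its group for all 10 enzymes, though 1 library of each group was highest for most of them. WT replicate 1 was the highest WT library for 6 of 10 (Gpam, Agpat2, Agpat9, Dgat1, Dgat2 and Gpd1), at 2.29 times the mean of the other WT libraries for Agpat2, 2.01 times for Gpd1, 1.63 times for Dgat2 and 1.63 times for Agpat9. For Lpin1 it was at 0.846 times and for Mogat1 at 1.04 times that mean. WT replicate 4 was the highest WT library for Agpat3, Lpin1 and Mogat1 and the lowest for Gpam, Dgat2 and Mogat2. Among libraries labelled Mrp4-/-, replicate 5 was highest for 8 of 10, all but Gpam and Agpat3, and lowest for 0. WT replicate 1 was also lowest for 0 in its group.

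**Figure D3:**
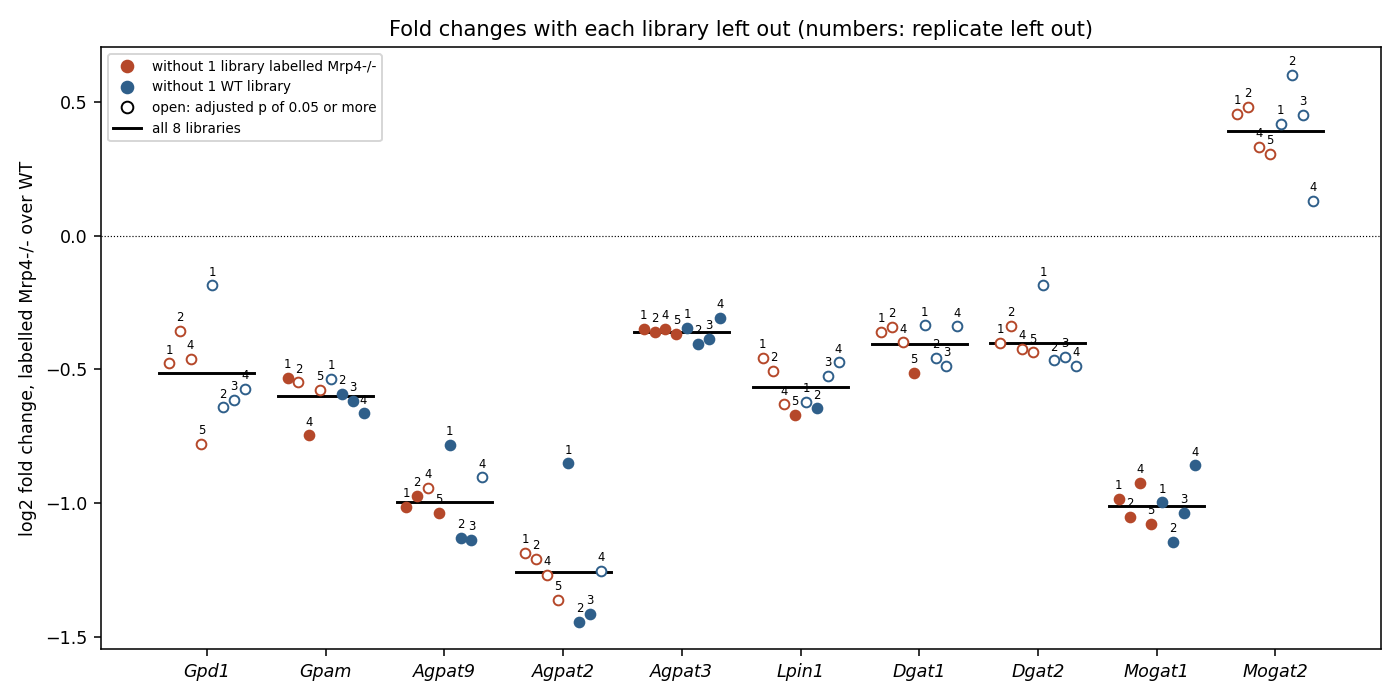
Log2 fold change (y axis, labelled Mrp4-/- over WT, edgeR) of the 10 enzymes with each library left out, each point labelled with the replicate left out, coloured by its group and open where the adjusted p was 0.05 or more; black lines are the values with all 8 libraries. Mogat1 and Agpat3 stay filled throughout, and the values of Agpat2, Dgat2 and Gpd1 lie closest to 0 without WT replicate 1.

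Beyond the 10 enzymes, a list of 31 other genes of the pathway was examined, of which 26 were tested. Of these 1 rose, 3 fell and 22 did not pass, with a median log2 fold change of 0.01, beside 18.3% called among all tested genes. Gpd2 and Gyk are described above. Cept1, which uses diacylglycerol to make phospholipid, fell to 16.7 ± 1.16 FPKM in libraries labelled Mrp4-/-, against 20.9 ± 2.53 FPKM in WT libraries (SD, n = 4), a log2 fold change of -0.39 ± 0.10 (SE; edgeR adjusted p = 0.0267). That call was lost without replicate 1, 2 or 5 labelled Mrp4-/- (-0.36, -0.40 and -0.38) or WT replicate 1 or 4 (-0.40 and -0.30). Agpat1, another enzyme of the second acylation, fell with a log2 fold change of -0.23 ± 0.07 (SE; edgeR adjusted p = 0.0473), a call lost without any 1 of the 8 libraries (-0.26 to -0.18) and in 8 of the 11 other alternatives (-0.23 to -0.16 over all 11). Agpat4, a relative of Agpat1, did not pass (7.22 ± 0.842 FPKM in libraries labelled Mrp4-/- and 5.54 ± 0.728 FPKM in WT libraries, SD, n = 4; edgeR adjusted p = 0.0902). Cds1, which directs phosphatidate to phospholipid, and Ppap2b, a membrane lipid phosphatase, had log2 fold changes of 0.29 and -0.19 and did not pass (edgeR adjusted p = 0.107 each). Without WT replicate 2 the value of Cds1 was 0.37 and passed, and DESeq2 called Ppap2b (adjusted p = 0.0243). The genes that activate fatty acids, Acsl1, Acsl3, Acsl4 and Acsl5, had log2 fold changes of -0.05, -0.19, -0.22 and 0.03, and none passed (edgeR adjusted p = 0.879, 0.542, 0.153 and 0.769).

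**Figure D4:**
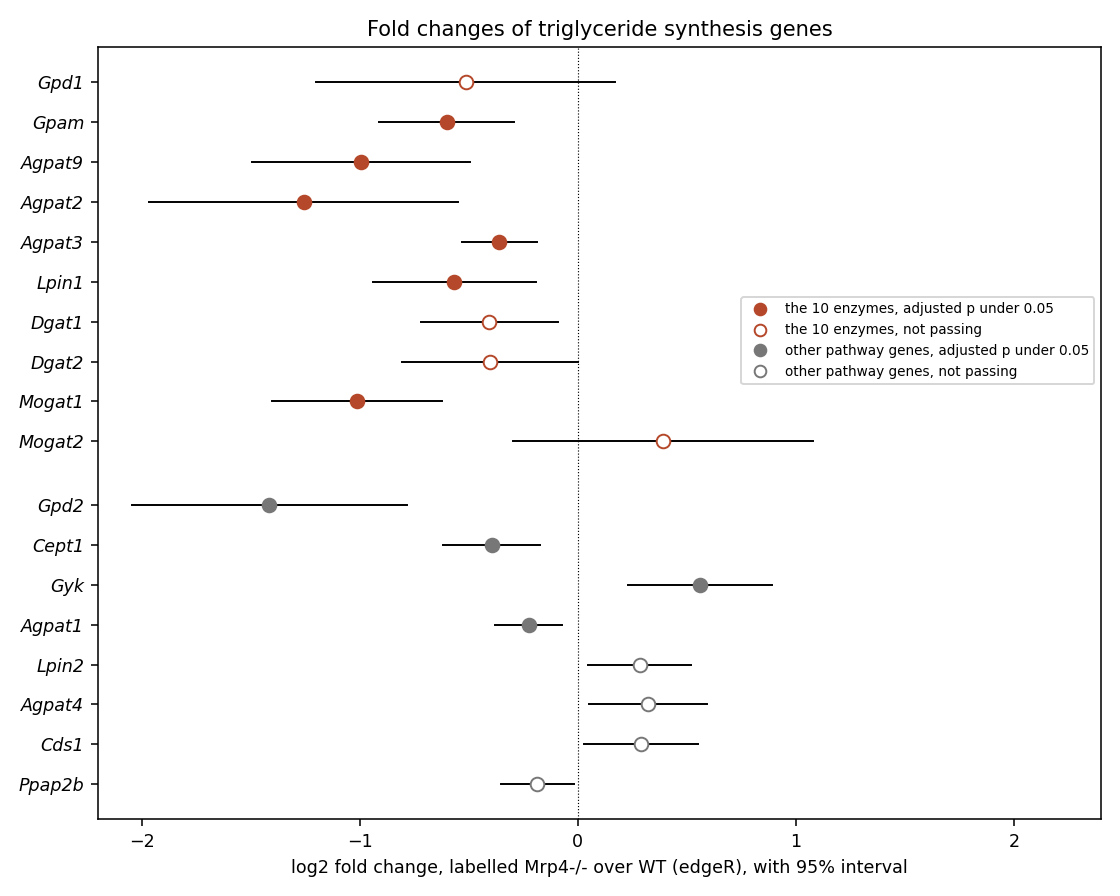
Log2 fold change (x axis, labelled Mrp4-/- over WT, edgeR) with its 95% interval for the 10 enzymes in pathway order and, below, the 8 other pathway genes with the lowest p; filled points had an adjusted p under 0.05. The filled points among the enzymes all lie below 0, from -1.26 for Agpat2 to -0.36 for Agpat3, and Mogat2 is the only enzyme above 0.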

How the data were processed

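Polyadenylated RNA was sequenced as paired reads of 100 bases on the BGISEQ-500, per the labels' protocols; build mm9 and Bowtie2 are named in the submitters' processing notes, and the sources used here do not name the quantifier. The authors deposited expected counts, FPKM values and transcript lengths (in bases) for each gene of each library, per the file headers; 92.0% to 92.6% of the expected counts listed per library were whole. The deposited FPKM table of the series held the same values as the sample files (largest difference 0). A gene not listed was taken as 0. Rounded expected counts went into edgeR 4.0.16 under R 4.3.3 (filterByExpr, 14257 of 18691 genes kept; TMM; robust quasi-likelihood test on genotype alone, two-sided). Each SE is the size of the log2 fold change over the square root of F. Reads carried no molecular identifiers, and whether counting used strand is not stated, so reads of overlapping genes may be mixed. Replicates of a group differed by more than sampling noise (chi-square per gene of 13.3 to 64.4), so each was counted. Members, lists, tests and alternatives were chosen with earlier results of these data known. All 10 enzymes are named, with the 8 other pathway genes of lowest p at a mean of at least 1 FPKM in either group; Agpat6 and the 4 Acsl genes were added after their values were seen. Alternatives were other scalings (DESeq2 1.42.0 size factors, library size, upper quartile, adipocyte markers), 2 filters, DESeq2, limma 3.58.1 (voom, and trend on log2(FPKM + 1) or log2(FPKM + 0.1)), a block for the replicate number, and each library left out. The edgeR script was tested on simulated data. Promoters are from RefSeq, GRCm38.p6, whose build is not mm9.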

Additional observations from a re-analysis of the deposited data

Results flagged for a closer look

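3 values lay far from the other libraries of their group, by Dixon's ratio above its 95% critical value, in 26 groups of 4 libraries examined; chance flags about 1 in 20 groups. Gpam was at 75.7 FPKM in replicate 4 labelled Mrp4-/-, against 50.9 to 55.0 FPKM in the other 3. Dgat2 was at 2127 FPKM in WT replicate 1, against 1216 to 1348 FPKM in the other WT libraries, and Gpd1 was at 847 FPKM in the same library, against 392 to 455 FPKM.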

How the results depend on the processing

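All 10 enzymes kept the direction of their log2 fold change in the 19 alternatives run. With 1 library left out, the number of genes that differed ran from 1172 to 3683 (2606 with all), enzymes lower from 3 to 6 and higher from 0 to 0, other pathway genes lower from 1 to 3 and higher from 0 to 4. Scaled to the adipocyte markers, 1615 genes differed, 75.4% of them higher against 55.9% in the main result, with 4 enzymes and 1 other pathway gene lower. With library size alone 74.1% were higher, with 2 other pathway genes higher. Deviations of same-numbered libraries correlated at 0.01, -0.07 and -0.13 for numbers 1, 2 and 4, and those of unlike-numbered libraries at -0.156 to 0.208. So few pairs cannot show whether the numbers pair the libraries. The replicate block leaves few residual degrees of freedom, since numbers 3 and 5 occur once. With it, edgeR called 141 genes, 0 enzymes lower and 0 other pathway genes in either direction. At unadjusted p under 0.05 the block gave 8 enzymes and 4 pathway genes lower and 4 pathway genes higher, beside 3602 tested genes. DESeq2 without the block called 7 enzymes, beside 3314 genes over all tested. The Abcc4 log2 fold change of -0.05 became 0.0182 with library size alone, 0.0284 and 0.0353 with limma on log2(FPKM + 1) and log2(FPKM + 0.1), and 0.0148 with the block, none passing; by log2 FPKM the difference ran from -0.0011 to 0.0765 with 1 library left out. The Dgat2 to Dgat1 value ran from -0.1154 to 0.1446 and changed sign without WT replicate 4 (-0.12) or replicate 1 labelled Mrp4-/- (-0.01). The causes were not tested. Mogat2, at an expected count of 64 in WT replicate 4, is the enzyme with the least depth.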
